A study of Mus musculus with 32 samples.

Results

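The transcripts described here are those of the 3 clock activators Arntl, Clock and Npas2, followed through the day in brown fat of the mouse. They were taken as the rows of the gene count table whose Ensembl identifiers carry these symbols, which gave 3 of 50686 genes. The samples were interscapular brown adipose tissue (iBAT), the thermogenic fat pad between the shoulder blades, of male C57BL/6J mice that were 10 weeks old, ate chow ad libitum without a fast and lived at 22 °C under equal lengths of light and dark. All mice were wild type and untreated, and the groups are defined by the time of killing. That time is given as Zeitgeber time (ZT, in hours, with ZT0 at lights on and ZT12 at lights off), with 8 time points 3 h apart, 4 mice at each and 1 library of total RNA per mouse.

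Arntl encodes BMAL1, a bHLH-PAS transcription factor that forms a heterodimer with CLOCK or with NPAS2, which is the closest relative of CLOCK. These dimers bind E-boxes and switch on the period and cryptochrome genes, whose proteins in turn repress the dimers, and the genes of the REV-ERB receptors Nr1d1 and Nr1d2, which repress Arntl, Clock and Npas2 through elements shared with the ROR activators (ROREs). In brown fat, as in most tissues, this loop runs in the cells themselves and is aligned with the light cycle and with feeding.

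All 8 markers of brown adipocytes, Ucp1 among them, were measured, and their summed level lay between 3903 and 7386 CPM (counts scaled to the size of the library) in every library. The libraries held 16300770 to 18254659 counts. The 8 markers of skeletal muscle differed far more, from 52.4 to 6032 CPM in sum, and exceeded 1000 CPM in 15 libraries, between 1 and 3 at each time point; none of these markers differed between time points. Lymphocyte markers stayed at or below 7.38 CPM in sum and macrophage markers ranged from 37.6 to 252 CPM. A 24 h component, called for 36.1% of all tested genes, was found for 3 of 5 macrophage, 3 of 7 lymphocyte, 4 of 5 fibroblast, 2 of 5 endothelial, 1 of 4 white adipocyte, 2 of 8 brown adipocyte and 0 of 5 red cell markers. Between time points, where 39.8% of genes were called, 4 of 5 endothelial, 3 of 5 fibroblast, 2 of 5 macrophage, 2 of 7 lymphocyte, 2 of 4 white adipocyte, 2 of 8 brown adipocyte and 0 of 5 red cell markers differed. Their part in the results was not tested. Sequencing lane 2 held the mice killed from ZT0 to ZT6, lane 3 those killed from ZT9 to ZT15 and lane 4 those killed at ZT18 or ZT21, so that lane and time of day cannot be told apart between lanes. In whole tissue, fewer cells of a type and less RNA per cell cannot be told apart.

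The genes lie on 3 chromosomes of the GRCm38 assembly. Arntl (ENSMUSG00000055116) spans chr7:113207465-113314126 on the plus strand, Clock (ENSMUSG00000029238) chr5:76209868-76304792 on the minus strand and Npas2 (ENSMUSG00000026077) chr1:39193731-39363236 on the plus strand. Of the exonic bases of Arntl, 0.44% are shared with an antisense gene that had 11 counts in all libraries together, and the exons of Clock and Npas2 overlap with no other gene. The bases before the first RefSeq start of each gene (assembly GRCm38.p6, written 5′ to 3′ on the coding strand) are shown because the 3 transcripts were highest at the same time of day. They cover chr7:113207215-113207464 for Arntl, chr5:76304793-76305042 for Clock and chr1:39194022-39194211 for Npas2. The stretch of Npas2 was cut at a GENCODE exon that begins before this RefSeq start, and it lies within the span of the gene given above.
Arntl: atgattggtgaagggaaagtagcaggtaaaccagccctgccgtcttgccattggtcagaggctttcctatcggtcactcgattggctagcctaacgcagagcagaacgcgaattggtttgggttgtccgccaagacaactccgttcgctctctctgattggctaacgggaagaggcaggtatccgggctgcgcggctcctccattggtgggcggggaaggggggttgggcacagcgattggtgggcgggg
Clock: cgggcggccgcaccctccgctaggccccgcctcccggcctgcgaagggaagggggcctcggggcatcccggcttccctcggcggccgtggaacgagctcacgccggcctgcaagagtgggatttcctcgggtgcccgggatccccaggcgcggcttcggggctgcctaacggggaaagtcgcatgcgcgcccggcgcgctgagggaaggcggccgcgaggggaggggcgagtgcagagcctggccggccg
Npas2: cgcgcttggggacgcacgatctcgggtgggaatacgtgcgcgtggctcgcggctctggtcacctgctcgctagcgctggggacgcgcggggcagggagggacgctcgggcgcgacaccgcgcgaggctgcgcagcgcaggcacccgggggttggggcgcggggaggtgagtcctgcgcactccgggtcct

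The RefSeq windows of 250 bases before and 50 bases after each annotated start were searched on both strands for the E-box (CACGTG), the E′-box (CACGTT), the D-box (TTATGTAA or TTACGTAA), the nuclear receptor half-site (AGGTCA) and the RORE, which ends in a half-site and so overlaps with it. Among all 32851 windows, 7.15% held an E-box, 4.68% an E′-box, 1.06% a D-box, 16.3% a half-site and 3.48% a RORE. None of the windows of Arntl, Clock or Npas2 held an E-box, an E′-box or a D-box. A RORE was found in a window of Arntl, in the first exon, and among those of the clock genes listed further on that had a window it was found in Nfil3 alone, a D-box repressor gene. A half-site without a RORE was found at the third RefSeq start of Clock, within an intron by the longer transcripts. The stretches below are chr7:113207494-113207520 and chr7:113207530-113207556 of Arntl, chr5:76303603-76303629 of Clock and chr13:52981033-52981059 of Nfil3, and capitals mark the element. The elements of Arntl begin 36 bases apart, and the upstream one is no RORE by the pattern used. From the upstream element to the RORE the difference is T9C, counted from 1 at the first capital letter.
Arntl, upstream: tggtcggaAAGTAGGTTAgtggtgcga
Arntl, RORE: aaggcagaAAGTAGGTCAgggacggag
Clock, half-site: ttggcctcTGACCTgacagatgacaga
Nfil3, RORE: ctcggaacTGACCTACTAacacacatc

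The first question was at which times of day each activator was high or low. All 3 were highest around lights on and lowest around lights off, but over very different ranges. Mean Arntl was 34.4 CPM at ZT0 and 1.15 CPM at ZT12, mean Npas2 was 4.95 and 0.0746 CPM, and mean Clock was 90.0 and 41.7 CPM. Levels are CPM after scaling by trimmed mean of M-values (TMM), given for single mice below and then as mean ± SD with n = 4.

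Arntl at ZT0 was 30.3, 35.9, 32.1 and 39.4 CPM in the 4 mice (34.4 ± 4.07). At ZT3 the mice had 36.3, 24.3, 29.3 and 20.2 CPM (27.5 ± 6.93), which overlaps with ZT0. By ZT6 they had 5.25, 4.44, 5.22 and 7.97 CPM (5.72 ± 1.55), so that every mouse of ZT6 was below every mouse of ZT3. The lowest levels came at ZT9, with 2.56, 0.984, 0.886 and 0.544 CPM (1.24 ± 0.899), and at ZT12, with 1.38, 0.988, 0.971 and 1.26 CPM (1.15 ± 0.203). These 2 time points overlap, and replicate 1 of ZT9 (44 counts) stood above the other 3 mice of that time point (9 to 17 counts). In the dark Arntl rose to 3.21, 2.95, 2.91 and 4.34 CPM at ZT15 (3.35 ± 0.671) and to 17.0, 16.0, 12.0 and 16.3 CPM at ZT18 (15.3 ± 2.25). At ZT21 the mice had 14.2, 16.8, 21.5 and 27.6 CPM (20.0 ± 5.90), overlapping with ZT18 and below all mice of ZT0. In order of the means, ZT0, ZT3, ZT21 and ZT18 each overlapped with the next, and ZT18, ZT6, ZT15 and ZT9 did not.

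Clock, which encodes the partner that BMAL1 is usually found with, was the most abundant of the 3 in counts, with 2858 to 6032 counts summed over the mice of a time point. At ZT0 it was 103, 78.4, 90.7 and 88.2 CPM (90.0 ± 10.0), and at ZT3 it was 72.5, 88.1, 81.1 and 78.6 CPM (80.1 ± 6.45). The mice of these time points overlapped, and those of ZT6 (57.8, 58.1, 68.9 and 64.7 CPM, 62.4 ± 5.39) were all lower. Levels were lowest at ZT9, with 43.7, 55.5, 38.8 and 41.7 CPM (44.9 ± 7.34), and at ZT12, with 41.5, 44.8, 40.9 and 39.6 CPM (41.7 ± 2.23). From there each mean was above the one before, without an overlap of neighbouring mice, although only the last of these steps passed the test given further on. The mice had 47.5, 49.8, 52.5 and 55.1 CPM at ZT15 (51.2 ± 3.31), 62.8, 68.1, 58.6 and 63.0 CPM at ZT18 (63.1 ± 3.91) and 73.9, 84.0, 83.2 and 95.4 CPM at ZT21 (84.1 ± 8.78). Ordered by their means, ZT0, ZT21 and ZT3 overlapped with one another, as did ZT18 with ZT6, and ZT15, ZT9 and ZT12 each with the next.

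Npas2, whose product can take the place of CLOCK in the dimer, was the least abundant. The mice of ZT0 had 6.55, 5.51, 3.58 and 4.17 CPM (4.95 ± 1.34) and those of ZT3 had 5.52, 4.80, 4.87 and 3.47 CPM (4.66 ± 0.861), with overlap. At ZT6 the values were 1.13, 0.946, 1.51 and 1.34 CPM (1.23 ± 0.246), below every mouse of ZT3. For ZT9, ZT12 and ZT15 only counts are meaningful: the 4 mice had 2, 4, 5 and 0 counts at ZT9, 4, 1, 0 and 0 at ZT12 and 7, 2, 1 and 3 at ZT15. A library with no count allows up to 3, which is 0.172 CPM at the median depth, so the order of these time points cannot be read at this depth. At ZT18 the mice had 6 to 9 counts (0.401 CPM ± 0.0666), and at ZT21 the values had risen to 1.98, 1.38, 2.45 and 2.13 CPM (1.98 ± 0.449), above all mice of ZT18. The summed counts of ZT0 and ZT12, 330 and 5, gave a 67.3-fold ratio with a 95% counting interval from 28.6 to 209. Of these 5 counts 4 came from replicate 1 of ZT12, and without it the ratio was 255 (45.4 to 10099, from 1 count in 3 mice). For Arntl the same ratio was 30.0 (24.0 to 38.1) and for Clock 2.15 (2.06 to 2.25), and these intervals cover counting error only.

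**Figure D1:**
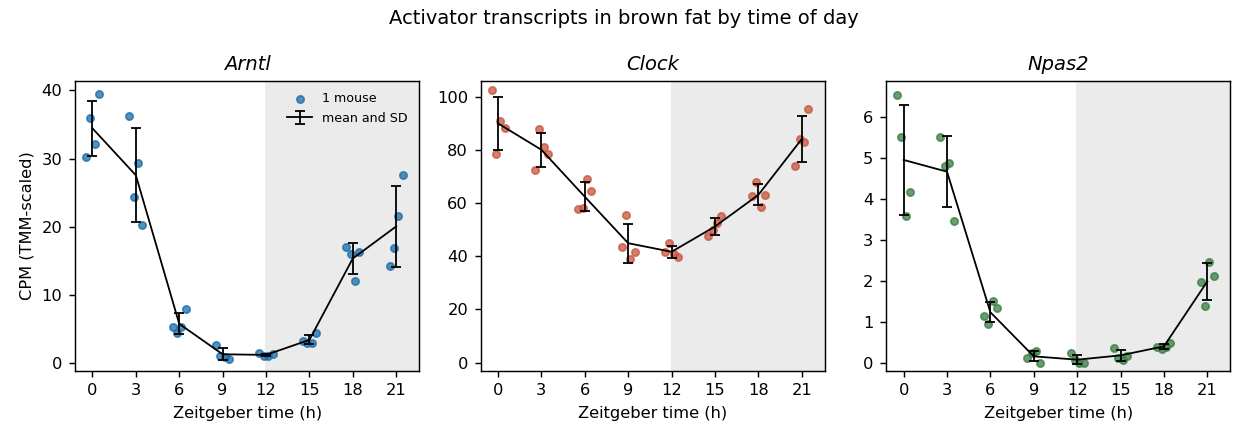
Level of Arntl, Clock and Npas2 (CPM after TMM scaling, linear axes from 0) against Zeitgeber time, with 1 point per mouse, the mean and SD of 4 mice in black and the dark phase shaded. Arntl and Npas2 fall to near 0 between ZT9 and ZT12, whereas no mouse has less than 38.8 CPM of Clock.

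The size and timing of the daily wave were compared by fitting a 24 h cosine to log2 CPM (prior count of 2), while the test was edgeR's quasi-likelihood test on the counts with p adjusted by Benjamini-Hochberg (BH) across the 15505 genes that passed the count filter. All 3 genes had a 24 h component: Arntl with an adjusted p of 3.5e-13, Clock of 2.9e-13 and Npas2 of 9.6e-15, where 36.1% of all tested genes were called. Their amplitudes (the height of the fitted peak above the daily mean, log2) were 2.50 ± 0.15 (SE) for Arntl, 0.55 ± 0.03 for Clock and 2.54 ± 0.14 for Npas2, corresponding to fitted changes of 31.9-fold, 2.15-fold and 33.8-fold. Among all tested genes the median amplitude was 0.14, and Npas2 and Arntl ranked 2 and 3 by amplitude, after Dbp, while Clock ranked 672. This order depends on the prior count: with 0.5 in place of 2, the amplitude of Npas2 was 3.11 (74.2-fold) and ranked 1, that of Dbp 2.68 and that of Arntl 2.55. The cosine took up 90.9% of the variance of Arntl over the 32 libraries, 90.7% of that of Clock and 92.3% of that of Npas2. The test between the 8 time points, which assumes no shape, gave adjusted p of 1.4e-13 for Arntl, 1.3e-09 for Clock and 3.7e-11 for Npas2, with 39.8% of all genes called. By the rank-based JTK_CYCLE test, P was 7.8e-12 for Arntl, 8.7e-13 for Clock and 4.7e-12 for Npas2 (36.9% of genes had P under 0.05). Its best templates peaked at ZT0 for Arntl and Npas2 (period of 24 h) and at ZT1.5 for Clock (period of 21 h, or 24 h with a peak at ZT0 under another scaling), so that they do not give the order of the cosine peaks.

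**Figure D2:**
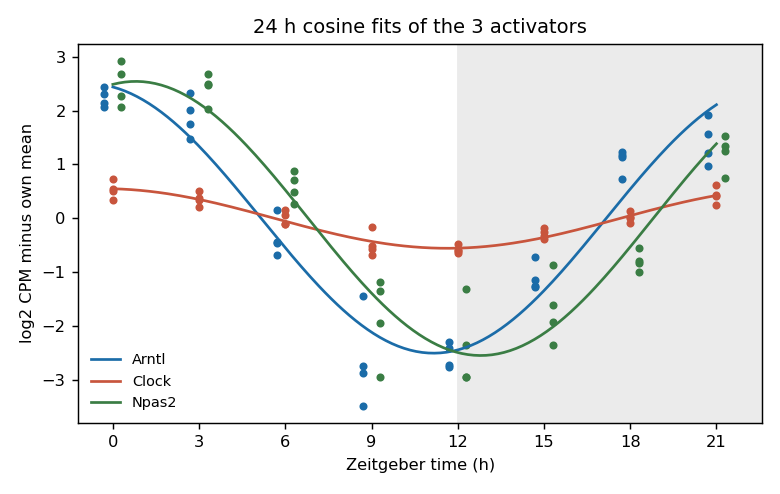
Log2 CPM of each activator minus its own mean over the 32 libraries, against Zeitgeber time, with points for single mice, lines for the fitted 24 h cosine and the dark phase shaded. The wave of Clock (amplitude 0.55) is shallow beside those of Arntl (2.50) and Npas2 (2.54), and that of Npas2 runs later than that of Arntl.

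The fitted peaks fell close together around lights on. Arntl peaked at ZT23.2 with a 95% interval of ± 0.46 h, Clock at ZT23.6 ± 0.46 h and Npas2 at ZT0.80 ± 0.42 h. Npas2 peaked 1.64 h later than Arntl (95% interval of the difference 1.14 to 2.14 h) and 1.16 h later than Clock (0.60 to 1.71 h). Clock was 0.48 h later than Arntl, with an interval from -0.11 to 1.07 h that includes 0. These intervals rest on the residuals around the fitted cosines, which hold departures from the cosine as well as the spread between mice. They take the correlation of the residuals of both genes into account and assume the same spread at all time points. They depend on the lanes: with lane as a factor the peaks were ZT21.8 for Arntl, ZT23.3 for Clock and ZT0.22 for Npas2, so that Clock was 1.56 h and Npas2 2.46 h later than Arntl.

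Arntl departed from a plain cosine. A 12 h component beside the 24 h one passed the threshold for Arntl (amplitude 0.56 log2, edgeR adjusted p = 0.023), as for 0.464% of all tested genes, but not for Clock (amplitude 0.04, adjusted p = 0.78) or Npas2 (amplitude 0.35, adjusted p = 0.53). Without the 15 libraries with muscle markers over 1000 CPM, an alternative chosen after the data were seen, the adjusted p of Arntl was 0.227 at an amplitude of 0.71, and no gene was called (edgeR, 0 genes past the adjusted threshold and 1457 with an unadjusted p under 0.05). Whether the 12 h component of Arntl differs from those of Clock and Npas2 was not tested.

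Steps between neighbouring time points located the change more closely. Of the 24 steps of the 3 genes, 12 passed the threshold (edgeR, BH over all genes for each step). The steps from ZT6 to ZT9, from ZT15 to ZT18 and from ZT21 to ZT0 compare different lanes. Lane and time of day cannot be told apart in them. Arntl fell by 2.26 ± 0.25 (log2, SE) from ZT3 to ZT6 (adjusted p = 4.0e-06) and by 2.19 ± 0.30 from ZT6 to ZT9 (0.00017), steps at which 1.21% and 0.877% of all genes were called lower. It rose by 1.54 ± 0.32 from ZT12 to ZT15 (0.0074), by 2.19 ± 0.26 from ZT15 to ZT18 (3.0e-05) and by 0.78 ± 0.24 from ZT21 to ZT0 (0.039), where 2.03%, 0.426% and 3.5% of genes were called higher. The last of these calls was lost with scaling by library size alone (0.76, adjusted p = 0.057), without mitochondrially encoded genes (0.84, adjusted p = 0.055) and with no filter (0.78, adjusted p = 0.051).

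For Npas2 the called steps were the falls from ZT3 to ZT6 (-1.91 ± 0.35 log2, edgeR adjusted p = 0.0035) and from ZT6 to ZT9 (-2.90 ± 0.49, 0.0018, down to 11 counts in 4 mice), and the rises from ZT18 to ZT21 (2.29 ± 0.41, 0.0049) and from ZT21 to ZT0 (1.31 ± 0.34, 0.017). The last call was lost without mitochondrially encoded genes (1.15, adjusted p = 0.061). Clock fell from ZT3 to ZT6 (-0.36 ± 0.10, 0.045) and from ZT6 to ZT9 (-0.47 ± 0.10, 0.0095) and rose from ZT18 to ZT21 (0.41 ± 0.10, 0.021), a step at which 1.24% of genes were called higher. The fall of Clock from ZT3 to ZT6 was lost in 20 of the 32 fits that left out a library (adjusted p up to 0.143) and with no filter (-0.35, adjusted p = 0.090). From ZT9 to ZT12 none of the 3 changed past the threshold, nor did any other gene (edgeR, 0 genes, 1047 at an unadjusted p under 0.05, and 24 by DESeq2). From ZT0 to ZT3, where 7.16% of genes were called higher and 6.6% lower, no activator passed either. In the direction opposite to the activators' calls, 4.22% of genes were called lower from ZT21 to ZT0, 0.864% higher from ZT3 to ZT6, 1.08% higher from ZT6 to ZT9, 1.02% lower from ZT12 to ZT15, 0.748% lower from ZT15 to ZT18 and 0.826% lower from ZT18 to ZT21. Without the muscle-rich libraries, which leaves 17, 3 of the 24 steps were called, namely the falls of Arntl from ZT3 to ZT6 and from ZT6 to ZT9 and that of Npas2 from ZT3 to ZT6. Several of the other steps were about as large as before but were not called: Arntl 1.72 from ZT12 to ZT15 and 1.90 from ZT15 to ZT18, Npas2 2.27 and Clock 0.46 from ZT18 to ZT21. Of the 4 libraries of ZT15, 3 were left out here, so the spread in the steps to and from ZT15 came from other time points.

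The 3 genes stood at different shares of their level at ZT0 in the middle of the dark phase. At ZT18 mean Arntl was at 44.5% of its mean at ZT0 and Clock at 70.1%, whereas Npas2 was at 8.09%. At ZT6, on the way down, the corresponding values were 16.6% for Arntl, 69.3% for Clock and 24.9% for Npas2. Whether the balance of 2 genes changed over the whole day was tested through the difference of their log2 CPM within a mouse, with a permutation test over the 8 time points (100000 resamples, F statistic, BH over the 3 pairs). All 3 pairs changed over the day, with adjusted p = 1e-05, the smallest that these resamples can give. The test covers unequal amplitudes (0.55 for Clock against 2.50 and 2.54) as well as unequal timing.

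The Arntl to Clock difference of log2 CPM was highest at ZT0 (-1.38 ± 0.30, SD, n = 4) and lowest at ZT9 (-5.24 ± 0.86) and ZT12 (-5.06 ± 0.27). The Clock to Npas2 difference was lowest at ZT3 (4.08 ± 0.32) and was 7.51 ± 0.77 at ZT9, 7.95 ± 0.75 at ZT12 and 7.54 ± 0.68 at ZT15. Arntl to Npas2 was lowest at ZT6 (2.10 ± 0.31) and highest at ZT18 (4.90 ± 0.28). With 5 to 13 Npas2 counts in 4 mice at ZT9, ZT12 and ZT15, the values of both pairs with Npas2 at these times are set in part by the prior count, and their order cannot be read. With a prior count of 0.5 the permutation p of Arntl to Npas2 was 0.00061. The same test was run within lanes, without adjustment over the 3 pairs. Between ZT18 and ZT21 on lane 4, Arntl to Npas2 and Clock to Npas2 differed with an exact permutation p of 0.0286, the smallest that 4 against 4 mice can give, and Arntl to Clock did not (exact p = 0.743). Over the 3 time points of lane 2 the exact permutation p was 0.00312 for Arntl to Clock, 0.00433 for Clock to Npas2 and 0.0525 for Arntl to Npas2. Over those of lane 3 it was 0.0258, 0.657 and 0.0899 for the same pairs.

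**Figure D3:**
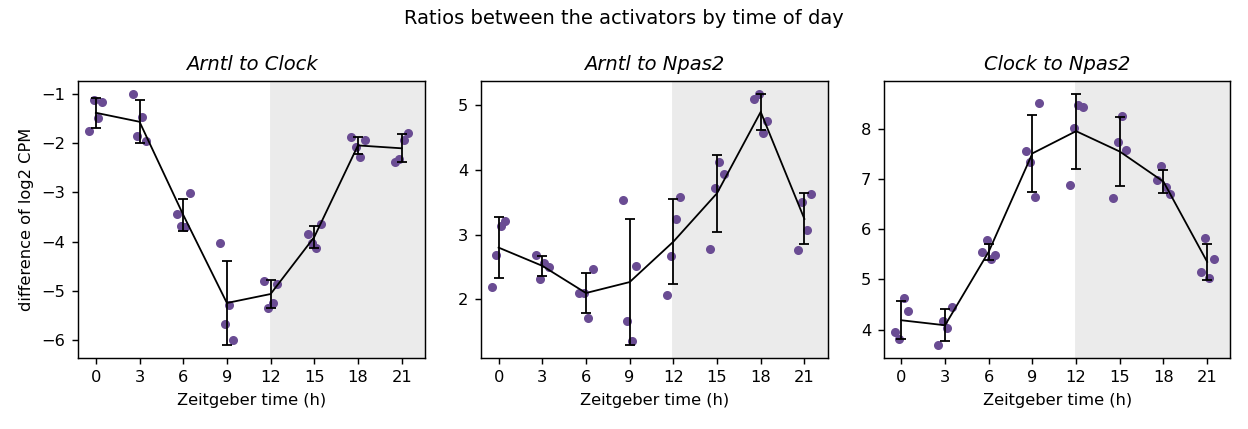
Difference of log2 CPM between 2 activators in the same mouse against Zeitgeber time, with 1 point per mouse, the mean and SD of 4 mice in black and the dark phase shaded. Arntl to Npas2 falls from 4.90 at ZT18 to 3.24 at ZT21, and Clock to Npas2 is high from ZT9 to ZT15 (7.51 to 7.95), where Npas2 has few counts.

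Levels of different genes were compared per kilobase of exon. With all annotated exons merged (7.52 kb for Arntl, 13.7 kb for Clock and 4.79 kb for Npas2), Clock had the highest level per kilobase at every time point: at ZT0 it was 6.56 CPM per kb, against 4.58 for Arntl and 1.03 for Npas2, and at ZT12 it was 3.04 against 0.153 and 0.0156. Clock thus stood 1.43-fold above Arntl at ZT0 and 19.9-fold at ZT12. With the longest coding transcript as the length (2.98 kb, 9.74 kb and 4.24 kb), an alternative chosen after the data were seen, the order of Arntl and Clock turned at ZT0 and ZT3, where Arntl was 1.25-fold and 1.13-fold above Clock. Clock exceeded Npas2 under both lengths, 6.35-fold and 7.90-fold at ZT0. Per kilobase of merged exons, Npas2 made up 13.6% ± 3.06 of Clock and Npas2 together at ZT0 and 14.3% ± 2.79 at ZT3, but 6.35% ± 1.44 at ZT21, 1.80% ± 0.339 at ZT18 and 0.50% ± 0.774 at ZT12. The share at ZT12 rests on 5 counts of Npas2, 4 of them in replicate 1. With 0.99% ± 0.836 at ZT9 and 1.02% ± 0.807 at ZT15, the order of these 3 time points cannot be read.

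Because each time point was on 1 lane, the 3 genes were also tested within lanes. On lane 2, between ZT0, ZT3 and ZT6, all 3 differed (edgeR adjusted p = 0.00016 for Arntl, 0.012 for Clock and 0.0009 for Npas2, with 13.3% of genes called). On lane 3, between ZT9, ZT12 and ZT15, neither Arntl (0.063) nor Clock (0.272) passed, with 1.93% of genes called, and Npas2 had too few counts to be tested. On lane 4, between ZT18 and ZT21, Clock (0.027) and Npas2 (0.0045) passed and Arntl (0.295) did not, with 4.48% of genes called. With lane as an additive factor all 3 kept a 24 h component (adjusted p = 3.0e-06 for Arntl, 1.4e-05 for Clock and 7.7e-06 for Npas2, with 17.2% of genes called), while the amplitude of Arntl was 1.87 with a peak at ZT21.8. Without the muscle-rich libraries the amplitudes were 2.52, 0.55 and 2.51 log2 for Arntl, Clock and Npas2 (adjusted p = 4.8e-06, 5.1e-05 and 2.1e-08).

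The activators were next set beside the genes they switch on and those that act back on them. In these comparisons peaks and their differences come from fits without lane as a factor. With lane as a factor the peak of Arntl was ZT21.8, and differences of the activators to the other clock genes were not computed. Of the 6 repressor genes, all had a 24 h component (edgeR, BH; 36.1% of all genes), and 5 of them peaked more than 6 h from Arntl. Per2, a period gene, peaked at ZT14.3 ± 0.60 h with an amplitude of 1.72 log2, Per3 at ZT12.2 ± 0.42 h with 1.32 and Ciart, which encodes CHRONO, at ZT11.3 ± 0.84 h with 1.54. The exception was Cry1, a cryptochrome gene known for its late phase, which peaked at ZT19.1 ± 0.52 h and so before Arntl (difference to Arntl -4.01 h, 95% interval -4.74 to -3.29 h). The median amplitude of this list was 1.16 log2, against 0.14 over all tested genes.

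Of the receptor genes that act on ROREs, the REV-ERB genes Nr1d1 and Nr1d2 had a 24 h component and peaked at ZT7.22 ± 0.41 h and ZT9.87 ± 0.54 h. Nr1d1 thus peaked 8.06 h after Arntl (7.41 to 8.71 h), 7.58 h after Clock (6.97 to 8.19 h) and 6.42 h after Npas2 (5.83 to 7.01 h). Rora, which encodes an activator at the same elements, did not pass the cosine test (amplitude 0.15, adjusted p = 0.21).

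Of the 6 D-box and DEC factors, 5 had a 24 h component, and 4 of these peaked more than 6 h from Arntl. Dbp, a direct target of the activator dimer, had the highest amplitude of all tested genes at a prior count of 2 (2.66 log2, behind Npas2 at 0.5), with a peak at ZT10.1 ± 0.28 h, 10.96 h after that of Arntl (10.6 to 11.3 h). Nfil3, a repressor at D-boxes whose window holds a RORE like that of Arntl, peaked at ZT20.4 ± 0.90 h. Among all genes with a 24 h component, 50.7% peaked within 6 h of Arntl.

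**Figure D4:**
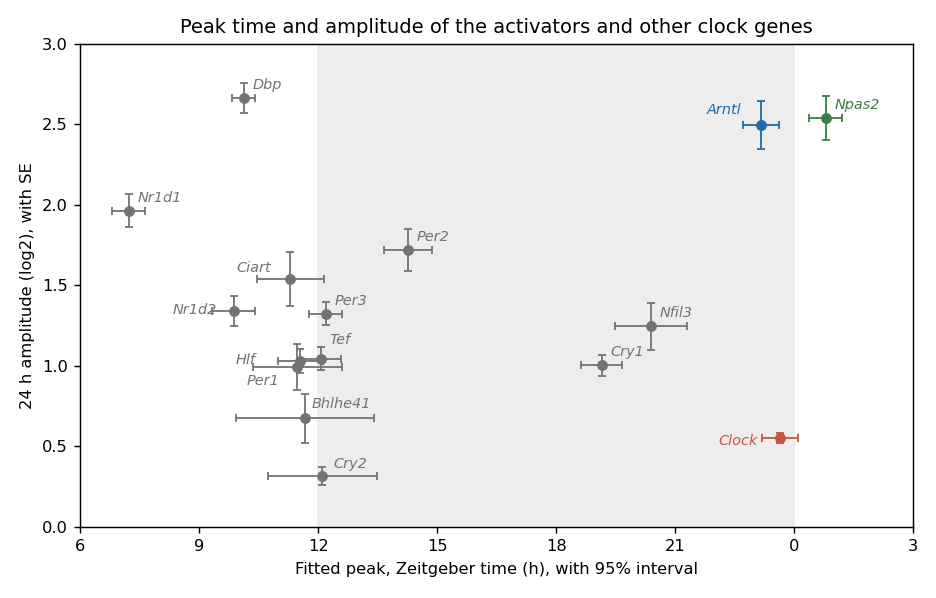
Fitted peak (Zeitgeber time, with 95% interval; the axis runs from ZT6 through ZT0 to ZT3) against 24 h amplitude (log2, with SE) of the 3 activators in colour and of other clock genes with a 24 h component in grey, with the dark phase shaded. The activators lie between ZT23.2 and ZT0.80, the REV-ERB genes and Dbp between ZT7.22 and ZT10.1, and Cry1 and Nfil3 at ZT19.1 and ZT20.4.

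Of 13 bHLH-PAS relatives 8 had enough counts to be tested, and 4 of these had a 24 h component, none with a peak within 6 h of Arntl, beside 36.1% of all tested genes with the component and 50.7% of those near Arntl. Their amplitudes were 0.24 log2 for Arnt, 0.12 for Hif1a, 0.11 for Epas1 and 0.54 for Hif3a. Arntl2, the paralogue of Arntl whose product can also pair with CLOCK, passed neither the cosine test (amplitude 0.09, edgeR adjusted p = 0.23) nor the test between time points (0.41). Its level stayed between 10.0 and 15.8 CPM in all mice. Arntl2 was thus below Arntl at ZT0 (12.5 ± 1.45 CPM against 34.4 ± 4.07) and above it at ZT12 (13.2 ± 0.93 CPM against 1.15 ± 0.203), and per kilobase of merged exons the corresponding levels were 2.19 against 4.58 and 2.32 against 0.153 CPM per kb. Of the 21 enzymes and co-factors that act on the activators or repressors, 9 had a 24 h component, close to the 36.1% of all tested genes, with a median amplitude of 0.09 log2 for the list. The highest of these was that of Usp2, a deubiquitinase gene, with an amplitude of 1.06 and a peak at ZT12.9 ± 0.79 h, and Cipc, which encodes an inhibitor of CLOCK, had an amplitude of 0.18.

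Whether the 3 activators also vary together among mice killed at the same time was examined on the deviations of log2 CPM from the mean of the time point, by permuting mice within time points (100000 resamples, two-sided, BH over 12 relations). Over all 32 libraries the raw levels of the activators ran in parallel, with Pearson's r of 0.92 between Arntl and Clock, 0.87 between Arntl and Npas2 and 0.89 between Clock and Npas2, which describes the shared time of day and lane. Among mice of the same time point the corresponding r were 0.17 (rho 0.24, permutation p = 0.578, adjusted 0.629), 0.32 (rho 0.35, p = 0.24, adjusted 0.48) and 0.12 (rho 0.12, p = 0.629, adjusted 0.629), and none passed the threshold. Between Arntl and Clock r was -0.18 on lane 2, 0.12 on lane 3 and 0.87 on lane 4 (exact permutation p = 0.0417, adjusted 0.25, 8 mice). A common deviation of the activators was thus not detected.

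One of the 12 relations passed. Arntl and Dbp deviated in opposite directions, with r = -0.70 (permutation p = 4e-05, adjusted 0.00048) and Spearman's rho = -0.76 (p = 4e-05, adjusted 0.00048), over 32 mice. In 24 of the 32 mice the signs of the deviations of Arntl and Dbp differed, and at 6 of 8 time points the mouse with the highest Arntl had the lowest Dbp, while at 4 of 8 the mouse with the lowest Arntl had the highest Dbp. At ZT3, for example, replicate 1 had 36.3 CPM of Arntl and 8.76 CPM of Dbp, while replicate 2 had 24.3 and 18.0 CPM, and at ZT6 replicate 4 had 7.97 and 47.5 CPM against 4.44 and 111 CPM in replicate 2. Within time points r was between -0.61 and -0.89. Without replicates 1 and 4 of ZT9, which lay farthest out on Arntl, r was -0.77, and without any single library it was between -0.76 and -0.67. Within lanes r was -0.83 on lane 2 (exact permutation p = 0.00463), -0.73 on lane 3 (0.00948) and -0.79 on lane 4 (0.0868, 8 mice). After adjustment over the 12 relations of a lane these exact p were 0.0556, 0.114 and 0.281. Scaling by library size alone gave r = -0.68, and the 16 libraries left at time points with at least 2 mice once the muscle-rich ones were removed gave r = -0.83.

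Of the remaining relations, those of Nr1d2 with Arntl (r = -0.39, permutation p = 0.019, adjusted 0.0759; rho = -0.44) and with Clock (r = -0.44, permutation p = 0.018, adjusted 0.0759; rho = -0.50) had the lowest p but missed the threshold. Clock and Dbp gave r = -0.27 (rho -0.32, permutation p = 0.222, adjusted 0.48) and Npas2 and Dbp r = -0.27 (rho -0.34, p = 0.121, adjusted 0.364). Whether the relation with Dbp differs between Arntl and the other activators was not tested. No activator passed with Nr1d1 (r between -0.13 and -0.08).

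**Figure D5:**
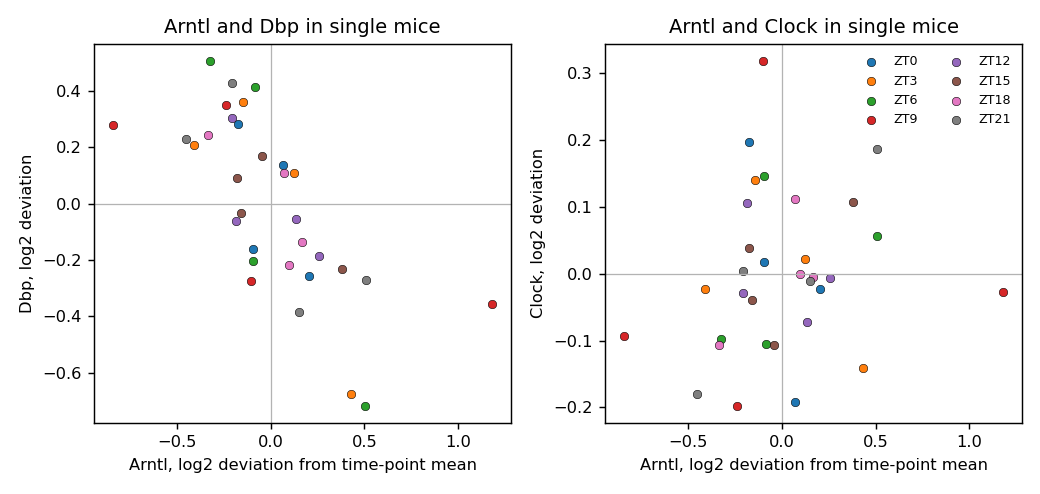
Deviation of log2 CPM from the time-point mean in single mice, Arntl on the horizontal axis against Dbp (left) and Clock (right), coloured by time point. The points of Dbp fall from upper left to lower right (r = -0.70), and those of Clock show no clear slope (r = 0.17).

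Genes with the most similar course were sought over the 32 libraries among 13446 tested genes with a mean of at least 1 CPM, the activators themselves left out, by Pearson's r of log2 CPM, as a description in which time of day and lane are shared by all genes. Dtx4 came first for each of the 3 activators (r = 0.94 with Arntl, 0.94 with Clock and 0.92 with Npas2), with an amplitude of 1.44 log2 and a peak at ZT23.7. Its level was 31.9 ± 1.38 CPM at ZT21, 30.1 ± 3.75 CPM at ZT0 and 4.47 ± 0.457 CPM at ZT12. After it came Dapk1, Mmp15, Ccng2 and Ankrd50 for Arntl (r from 0.90 to 0.88), Sh3pxd2a, Anp32a, Slc16a1 and Gtf2ird1 for Clock (0.88 to 0.87) and Lrig2, Plekhg1, Tshr and Prr13 for Npas2 (0.90 to 0.88). The lists thus had Dtx4 in common and no other gene. Among the most opposite courses were those of the D-box genes Hlf, Tef and Dbp for Arntl (r = -0.97, -0.94 and -0.93), of Per3 and Grina for Clock (-0.94 and -0.89) and of Per3, Tef and Usp2 for Npas2 (-0.93, -0.90 and -0.89).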

How the data were processed

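RNA-seq gene counts of 32 iBAT libraries, 1 per mouse, were analysed. According to the study's methods and the submitters' processing notes, the authors aligned stranded paired-end reads with GSNAP to mm10 and counted reads per Ensembl gene with HTSeq (0.6.1); the deposited values are raw counts, neither normalised nor pooled, and the strand setting of the counting is not given in the sources used here. Groups were the ZT labels. The 3 genes and all gene lists were chosen with earlier results of these data known.

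Genes were kept by edgeR's filterByExpr with time point as group (15505 genes, 99.9% of counts) and scaled by TMM. Quasi-likelihood tests (edgeR 4.0.16, R 4.3.3) were run for a 24 h cosine, the difference between the 8 time points, a 12 h component beside the cosine and each 3 h step, with Benjamini-Hochberg adjustment over all tested genes and a threshold of 0.05. Amplitudes and peaks came from least squares on log2 CPM (prior count 2), so changes of genes with few counts are understated. JTK_CYCLE was rewritten with templates of 21 and 24 h. Permutation tests and correlations used SciPy 1.17.1. Median depth was 17418661 counts, at which 3 counts equal 0.172 CPM, and intervals on counts cover counting error only. Named genes were the activators, the members of the lists, and the 5 genes most like and 3 most opposite to each activator, of which some are not reported here. The scripts were tested on simulated data. Alternatives were other scaling factors, no filter, DESeq2 (1.42.0), a prior count of 0.5, mitochondrially encoded genes left out, the replicate number or lane as a term, single lanes, and each library left out. Leaving out muscle-rich libraries, the transcript length and the ratio of time points without single libraries were added after seeing the data. Promoter windows were read from a RefSeq table, and protein sequences were not used here.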

Additional observations from a re-analysis of the deposited data

How the results depend on the processing

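The 24 h component of each activator kept its direction and its side of the threshold under every alternative run, with amplitudes of 2.42 to 2.56 for Arntl, 0.54 to 0.57 for Clock and 2.48 to 2.62 for Npas2 when any library was left out (3.11 for Npas2 with a prior count of 0.5). Of 410 alternatives other than single libraries left out, 345 left the result as it was. Without the muscle-rich libraries, which leaves 17, the 12 h component of Arntl was 0.71 (edgeR adjusted p = 0.227), 3 steps of the activators were called, and 2863 genes were called for the cosine, 1548 between time points and 0 for the 12 h component (1457 at an unadjusted p under 0.05). The step of Arntl from ZT9 to ZT12 was then 0.51. Without mitochondrially encoded genes 41 genes had a 12 h component and the step of Npas2 from ZT0 to ZT3 was 0.070. At that step 1269 genes were then called, against 2134 in the main setting and 1396 with no filter. With lane as a factor 2661 genes were called for the cosine. The adjusted p between time points was 0.0631 for Arntl and 0.272 for Clock on lane 3, and 0.295 for Arntl on lane 4. Within lanes the ratios were judged by the exact permutation p without adjustment over the 3 pairs. By this the F missed the threshold for Arntl to Clock on lane 4 (0.121), Arntl to Npas2 on lanes 2 (4.39) and 3 (3.25) and Clock to Npas2 on lane 3 (0.448). The relation of Arntl and Dbp was -0.83, -0.73 and -0.79 on lanes 2, 3 and 4, past the threshold on none after adjustment. Relations that had not passed changed sign: Arntl and Clock on lane 2 (-0.18), Clock and Npas2 without the 2 farthest libraries (-0.10) and on lane 4 (-0.044), Arntl and Nr1d1 without the 2 farthest (0.10) and on lanes 2 (0.16) and 4 (0.0015), Clock and Nr1d1 without the 2 farthest (0.15) and on lane 4 (0.41), Clock and Dbp on lane 2 (0.021), and Npas2 and Nr1d1 on lane 3 (0.43). When single libraries were left out, the genes with a 12 h component numbered 13 to 297, the activators' called steps 9 to 13, and the steps that changed sign were -0.35 to 0.51 for Arntl and -0.17 to 0.011 for Clock from ZT9 to ZT12, and -0.21 to 0.078 for Npas2 from ZT0 to ZT3. The rise from ZT21 to ZT0 then lost its call in 7 of 32 fits for Arntl and in 4 for Npas2. The cause of these changes was not tested. Replicate numbers did not pair the mice, since same-numbered mice had median correlations of their deviations between -0.23 and 0.02; a replicate block gave 5373 genes for the cosine and 11 called steps, and the adjusted p of Clock from ZT3 to ZT6 was 0.059. JTK_CYCLE was not run with libraries left out. Depth limits Npas2 from ZT9 to ZT15, where 4 mice together had 5 to 13 counts.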
